A study of Mus musculus with 40 samples.

Results

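The cerebral cortex of aged Ttpa-/- mice kept on a diet rich in vitamin E was compared with that of aged wild-type mice on ordinary chow. The 8 arrays, of 40 in the series, were chosen by their labels alone, as Ttpa-/- mice of 29 months on the supplemented diet (4 arrays, 600 mg of α-tocopherol per kg) and wild-type mice of 29 months on the normal diet (4 arrays, 36 mg per kg). Genotype and diet therefore both differ between the groups. All mice were of the C57Bl/6 strain, and the study's methods give 4 mice a group. The series also holds cortex of wild-type and of Ttpa-/- mice of 29 months on a diet deficient in α-tocopherol, cortex of young wild-type mice, and the cerebellum of the same kinds of mice, with 4 arrays for each group.

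Ttpa encodes the α-tocopherol transfer protein, with which the liver returns dietary vitamin E to the circulation. Without it, plasma and tissues are depleted of α-tocopherol, a lipid-soluble antioxidant that stops chains of lipid peroxidation in membranes. A large dietary dose is known to make up in part for the missing protein. The supplemented mice thus lack the gene but may be deprived of the vitamin to a lesser degree, which the arrays do not measure.

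Levels are log2 of the background-subtracted intensity of a 60-base probe relative to the 75th percentile of its array, so that 0 stands for that percentile and a difference of 1 for a doubling. The scanner's flag put 52.0% to 57.1% of the probes of an array well above background, and the 75th percentile was 483 to 547 intensity units. The 4 wild-type arrays lay on slide 1 and the 4 supplemented Ttpa-/- arrays on slide 2, so slide and group cannot be told apart in this comparison. The deficient-diet wild-type arrays lay on slide 2 as well, and those of deficient-diet Ttpa-/- mice on slide 3. All 9 markers of cortical neurons were tested, and their median difference between the groups was 0.05 on the log2 scale. In bulk tissue, fewer cells of a type and less RNA per cell cannot be told apart.

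The knocked-out gene was too dim in the cortex to check the labels. Its brighter probe (A_66_P128446, chr4:19957856-19957915, mm9, the build of all probe positions given) read -6.67, -6.55, -6.65 and -6.84 in supplemented Ttpa-/- cortex and -4.54, -5.25, -5.31 and -4.70 in wild-type cortex. The groups did not overlap, but the probe was well above background on 0 of 8 arrays, and no fold is given. In the cerebellum the same probe was well above background on 4 of 4 aged wild-type arrays of the normal diet, at -3.34 ± 0.26 (SD, n = 4), and on 1 of 4 supplemented Ttpa-/- arrays, at -5.67 ± 0.68 (SD, n = 4).

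Few probes differed. Of 28268 probes tested, supplemented Ttpa-/- cortex had 10 that were up-regulated (0.0354%) and 16 that were down-regulated (0.0566%), by limma with a Benjamini-Hochberg adjusted p under 0.05 and a fold over 1.5. Such probes are termed called below. A probe was tested when every array of 1 of the groups, or of both, had it well above background. The up-regulated probes carry 4 gene symbols and the down-regulated ones 12. The arrays of the groups did not overlap in 25 of the 26 called probes, against 6.88% of all tested probes. The called probes were picked on these same arrays, so this share is no added support. For 75.8% of the tested probes the 95% confidence interval lay within a 1.5-fold change in either direction.

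The counts depended on the scaling and on single arrays. They were 2 up and 2 down when each array was scaled to its median, and 0 up and 1 down when the 8 arrays were fitted without the other groups. In the fit of all groups 2405 probes had an unadjusted p under 0.05. Without supplemented Ttpa-/- replicates 1, 2, 3 and 4 in turn, 35, 6, 3 and 23 probes were up-regulated and 42, 5, 6 and 25 down-regulated. Without wild-type replicates 1, 2, 3 and 4 the counts were 5, 6, 8 and 16 up and 4, 6, 7 and 22 down. Only 6 of the 26 probes kept an adjusted p under 0.05 in all 8 of these fits, and they were both probes of Car8, the probe of Lyn, the unnamed probes A_55_P2424060 and A_55_P2269988, and the probe A_30_P01024563 of a long intergenic RNA of chromosome 16.

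Car8 showed the largest difference among the called probes. It encodes a carbonic anhydrase-related protein without catalytic activity, which binds the inositol trisphosphate receptor and is abundant in Purkinje cells. Its brighter probe read -6.17, -6.08, -4.90 and -6.30 in supplemented Ttpa-/- cortex and -2.37, -2.27, -2.69 and -2.58 in wild-type cortex. All Ttpa-/- arrays lay below all wild-type arrays, and the probe cleared the background on 0 of 4 null and 4 of 4 wild-type arrays. Only a bound can thus be given, which is the wild-type mean against the lowest signal well above background on the Ttpa-/- arrays, or the probe's own signal where that was higher. Car8 was at least 4.05-fold lower (adjusted p = 0.000338, limma). Its second probe was at least 2.06-fold lower (adjusted p = 7.00e-06, limma), and it too was well above background on wild-type arrays alone. The 7 tested markers of the cerebellum, Car8 among them, had a median difference of 0.06.

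Car8 lies on chromosome 4, as does Ttpa, and so did 7 of the 16 down-regulated probes. These are 0.385% of the 1816 tested probes of that chromosome, against 9 of 26452 (0.034%) on the others, and 0 of the 10 up-regulated probes lay there. The 7 probes stand for 5 transcripts. Counted from the Ttpa probe, with negative values toward lower coordinates, Lyn lay at -16.2 Mb, Car8 at -11.9 Mb, the transcript NAP095541-001 at -11.5 Mb, 6430704M03Rik at 37.0 Mb and Tle1 at 51.8 Mb. Without single arrays 4 to 7 probes of chromosome 4 were down-regulated, and 2 when arrays were scaled to their median. The share on chromosome 4 was not tested against the others.

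Lyn, a Src family tyrosine kinase of B cells and myeloid cells, read -4.86, -4.66, -4.79 and -4.70 in supplemented Ttpa-/- cortex and -3.78, -3.91, -3.51 and -3.94 in wild-type cortex. It was well above background on 0 of 4 Ttpa-/- arrays and was at least 1.64-fold lower there (adjusted p = 0.00509, limma). Tle1, a transcriptional corepressor of the Groucho family, read 0.46, 2.10, 2.06 and 2.16 in supplemented Ttpa-/- cortex and 3.09, 3.11, 3.05 and 3.17 in wild-type cortex. The groups lay apart, and Ttpa-/- replicate 1 was far below the other 3. The difference was -1.41 ± 0.29 (SE, adjusted p = 0.0245, limma), and without that array it was -1.001. The adjusted p stayed under 0.05 in 2 of the 8 fits without an array, with a highest value of 0.103. The other tested probes of Tle1 gave -0.34 and -0.41 and were not called.

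6430704M03Rik is the array's name for Frrs1l, which encodes an auxiliary protein of AMPA-type glutamate receptors. Its brightest probe read 3.44, 3.33, 3.21 and 3.18 in supplemented Ttpa-/- cortex and 3.96, 4.01, 3.75 and 3.84 in wild-type cortex, without overlap. The difference was -0.60 ± 0.11 (SE, adjusted p = 0.0137, limma). A second called probe gave -0.65, and the third, at -0.52, had an adjusted p of 0.0241 (limma) but a smaller change than the fold required. NAP095541-001, a transcript to which the array gives no gene symbol, read 2.68, 2.47, 2.68 and 2.73 against 3.41, 3.39, 3.44 and 3.53. Its arrays lay close together within each group, and the difference was -0.80 ± 0.14 (SE, adjusted p = 0.00827, limma).

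**Figure D1:**
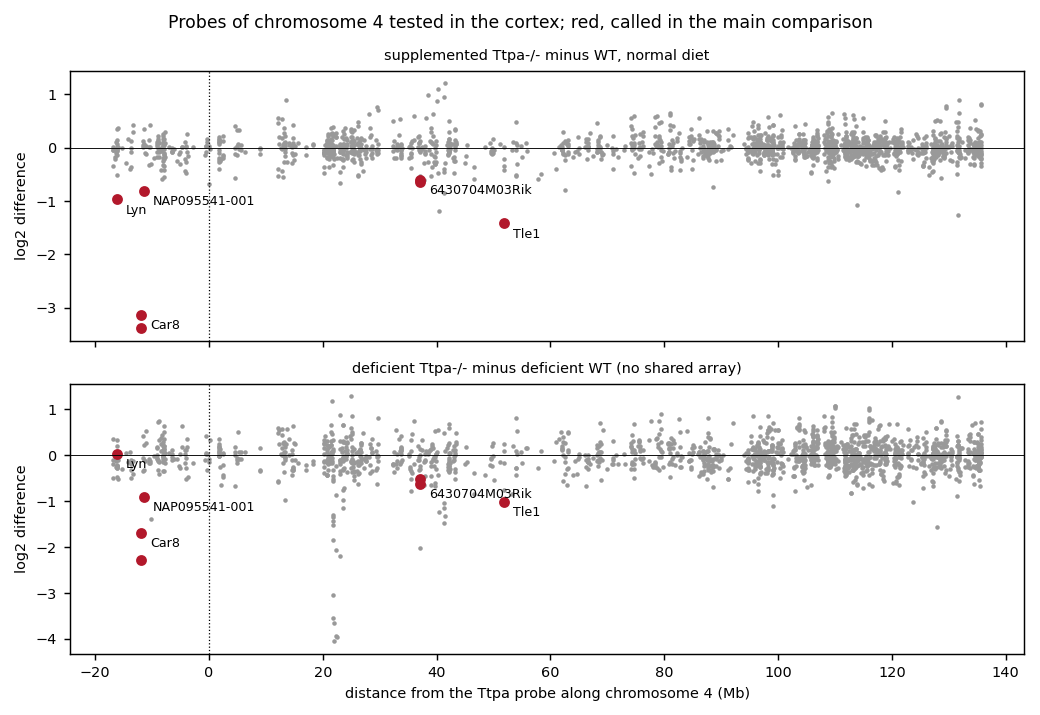
Log2 difference of probes of chromosome 4 (vertical axis) against their distance from the Ttpa probe in Mb (horizontal axis). The first comparison is supplemented Ttpa-/- minus normal-diet wild-type cortex, and the second is deficient-diet Ttpa-/- minus deficient-diet wild-type cortex. Both show the probes tested in the first. Probes called in the first comparison are marked, and all points are measured values. Those of Car8 and Lyn in the first comparison rest on a group not above background. In the second, the dimmer probe of Car8 was well above background on 0 of 4 Ttpa-/- and 1 of 4 wild-type arrays and was not tested. Tle1 lies at -1.41 and -1.01.

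The genotypes on the deficient diet gave a comparison that shares no array with this one, again across slides. Of all probes tested there, 3.07% were called in either direction, and the second probe of Car8 was not tested. Of the 7 chromosome 4 probes, 4 were called in the same direction. They were the brighter probe of Car8, above background on 2 of 4 arrays of the null mice, at -2.28, Tle1 at -1.01, NAP095541-001 at -0.90 and the brightest probe of 6430704M03Rik at -0.62, with adjusted p of 0.00265, 0.0204, 0.000254 and 0.000905 (limma). Lyn was at 0.04 and was not called. Between the deficient-diet groups, 14 probes at 21.8 to 23.6 Mb from Ttpa, picked by these values and among them those of Ccl19, Ccl27a and Creb3, differed by -4.05 to -1.14. In supplemented Ttpa-/- against normal-diet wild-type cortex the same probes differed by -0.66 to 0.29, and 0 were called.

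Outside chromosome 4, 8 named genes were down-regulated, and several of them are known to follow neuronal activity. Bdnf, the brain-derived neurotrophic factor, read 0.68, 0.64, 0.62 and 0.89 in supplemented Ttpa-/- cortex and 1.28, 1.53, 1.39 and 1.14 in wild-type cortex. The groups did not overlap, and the difference was -0.63 ± 0.13 (SE, adjusted p = 0.0241, limma). Pcsk1, a convertase that cleaves prohormones and neuropeptide precursors, read -0.97, -0.86, -0.93 and -0.76 against -0.34, -0.03, -0.19 and -0.49. All Ttpa-/- arrays lay below all wild-type arrays, with a difference of -0.62 ± 0.12 (SE, adjusted p = 0.0221, limma). Klf10, a zinc finger factor of TGF-β signalling, read 1.40, 1.51, 1.63 and 2.08 against 2.75, 2.64, 2.43 and 2.35, also without overlap. The difference was -0.89 ± 0.16 (SE, adjusted p = 0.00827, limma).

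Sik2, a salt-inducible kinase that restrains CREB-dependent transcription, read -0.09, -0.54, -0.56 and -0.28 in supplemented Ttpa-/- cortex and 0.33, 0.50, 0.38 and -0.05 in wild-type cortex. Wild-type replicate 4 lay just above Ttpa-/- replicate 1, and the difference was -0.66 ± 0.13 (SE, adjusted p = 0.0137, limma). Inhba, the gene of the activin βA subunit, read -0.69, -1.39, -1.03 and -0.93 against -0.10, 0.28, 0.22 and -0.85. It was the called probe whose groups overlapped, through wild-type replicate 4, with an exact two-sided permutation p of 0.0571. The limma difference was -0.90 ± 0.20 (SE, adjusted p = 0.0409, limma). The other 25 called probes, without overlap, had an exact permutation p of 0.0286, the smallest that the 70 splits of 8 arrays can give.

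Ankfy1, an endosomal effector of Rab5, read -2.00, -3.00, -2.79 and -2.15 in supplemented Ttpa-/- cortex and -1.37, -1.44, -1.48 and -1.82 in wild-type cortex, and fell by 0.96 on the log2 scale. Zbtb11, a zinc finger and BTB domain factor, read 0.71, -0.08, 0.52 and 0.59 against 1.04, 1.02, 0.99 and 1.20, with Ttpa-/- replicate 2 lowest, and fell by 0.63. Orai1, the pore of the store-operated calcium channel, read -2.93, -2.91, -2.84 and -2.77 against -2.06, -2.30, -1.96 and -2.63 and fell by 0.63. In none of the 3 did the groups overlap, and the adjusted p were 0.0400, 0.0400 and 0.0433 (limma). The probes of Orai1 and Ankfy1 disagreed, since the brighter probe of Orai1 gave 0.12 and the dimmer one of Ankfy1 -0.01. The other probes of Zbtb11 gave -0.42 and -0.64 and that of Sik2 -0.37, none of them called. Of the 8 fits without an array, the adjusted p stayed under 0.05 in 6 for Klf10, 3 each for Bdnf, Pcsk1, Sik2 and Ankfy1, 2 each for Inhba and Zbtb11 and 1 for Orai1.

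**Figure D2:**
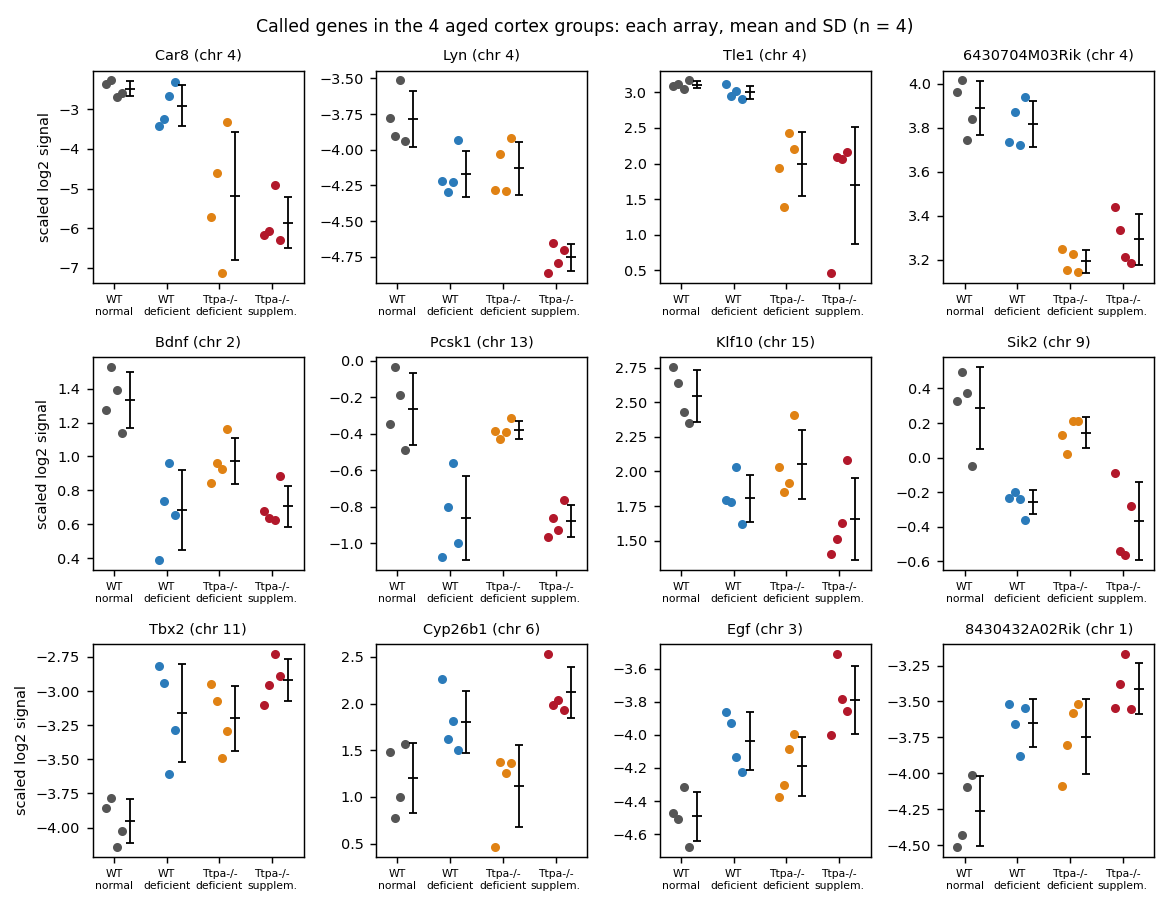
Log2 signal relative to the 75th percentile (vertical axes) of 12 called genes on each array of the 4 aged cortex groups, with the mean and SD (n = 4). Pcsk1 lies at -1.08 to -0.56 on the deficient-diet wild-type arrays and at -0.97 to -0.76 on the supplemented Ttpa-/- arrays.

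The up-regulated genes were Tbx2, Cyp26b1, 8430432A02Rik and Egf. Tbx2, a T-box transcriptional repressor, read -3.10, -2.96, -2.73 and -2.89 in supplemented Ttpa-/- cortex and -3.86, -3.78, -4.14 and -4.03 in wild-type cortex, where it was well above background on 2 of 4 arrays. The groups lay apart, with a difference of 1.03 ± 0.19 (SE, adjusted p = 0.00967, limma). Cyp26b1, which degrades retinoic acid, read 2.53, 1.98, 2.03 and 1.93 against 1.48, 0.78, 0.996 and 1.57, without overlap. The difference was 0.92 ± 0.20 (SE, adjusted p = 0.0400, limma). 8430432A02Rik, a gene named by a clone, read -3.55, -3.38, -3.17 and -3.55 against -4.51, -4.43, -4.09 and -4.01 and rose by 0.85 ± 0.15 (SE, adjusted p = 0.00654, limma). It was well above background on 2 of 4 wild-type arrays. Egf, the epidermal growth factor, read -4.00, -3.51, -3.78 and -3.86 against -4.47, -4.51, -4.31 and -4.68. On the wild-type arrays it cleared the background on 0 of 4, and it was at least 1.43-fold higher in supplemented Ttpa-/- cortex (adjusted p = 0.0140, limma).

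The other 6 up-regulated probes have no gene symbol. A_55_P2269988 on chromosome 13 rose by 1.60 ± 0.27 (SE, adjusted p = 0.00469, limma) and was well above background on 1 of 4 wild-type arrays. A_55_P2424060 on chromosome 14 read -1.41, -1.13, -1.34 and -1.24 in supplemented Ttpa-/- cortex and -2.33, -2.53, -2.24 and -2.17 in wild-type cortex. Its arrays varied little within each group, and the difference was 1.04 ± 0.12 (SE, adjusted p = 7.00e-06, limma). A_55_P2036994 rose by 1.24 ± 0.28 (SE, adjusted p = 0.0492, limma) and was well above background on 2 of 4 wild-type arrays. A_30_P01024563, of a long intergenic RNA on chromosome 16, rose by 0.93 ± 0.14 (SE, adjusted p = 0.000849, limma). Among the down-regulated probes, A_55_P2072925 on chromosome 5 also lacks a name and fell by 0.71 on the log2 scale.

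The designed 60-base sequence is what identifies these transcripts, which the array does not name. It is shown 5′ to 3′ with its mm9 position for 5 of the called probes without a symbol.
A_55_P2424060 (chr14:39772023-39772082): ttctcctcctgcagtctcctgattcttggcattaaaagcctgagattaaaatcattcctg
A_30_P01024563, long intergenic RNA (chr16:21805753-21805812): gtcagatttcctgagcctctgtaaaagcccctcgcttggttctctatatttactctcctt
A_55_P2269988 (chr13:102017272-102017331): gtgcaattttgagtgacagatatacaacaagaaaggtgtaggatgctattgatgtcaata
A_55_P2072925 (chr5:87798279-87798338): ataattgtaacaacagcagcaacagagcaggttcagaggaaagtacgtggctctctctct
A_52_P543430, NAP095541-001 (chr4:8488286-8488345): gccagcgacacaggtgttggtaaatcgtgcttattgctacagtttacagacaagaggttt

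Both remaining up-regulated probes belong to long intergenic RNAs of chromosome 18. A_30_P01020443 rose by 1.03 ± 0.20 (SE, adjusted p = 0.0137, limma) and was well above background on 3 of 4 wild-type arrays. A_30_P01029372 cleared the background on 0 of 4 wild-type arrays, and its signal was at least 1.26-fold higher in supplemented Ttpa-/- cortex (adjusted p = 0.0179, limma).

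Against deficient-diet wild-type cortex on the same slide, 4 of the 26 probes were called for the supplemented Ttpa-/- arrays, against 0.0316% of 28445 probes tested. That comparison shares the 4 Ttpa-/- arrays with the one above, on which the 26 were chosen, so nothing is read from this share. The brighter probe of Car8 was at least 3.00-fold lower in the Ttpa-/- arrays (adjusted p = 0.00547, limma). The others were NAP095541-001 at -0.79 (adjusted p = 0.0216), A_55_P2424060 at 0.98 (adjusted p = 4.63e-05) and the RNA of chromosome 16 at 0.98 (adjusted p = 0.000877). Tle1 was at -1.31 (adjusted p = 0.0961) and the brightest probe of 6430704M03Rik at -0.52 (adjusted p = 0.0700), which did not pass. Lyn, at least 1.26-fold lower (adjusted p = 0.214, limma), and A_55_P2269988, at 1.14 (adjusted p = 0.122), did not pass either.

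Of the down-regulated genes outside chromosome 4, 0 were called within the slide by limma, and 1 of the 8 had an unadjusted p under 0.05. Bdnf was at 0.02 ± 0.13 (SE), Pcsk1 at -0.02 ± 0.12, Sik2 at -0.11 ± 0.13, Inhba at -0.04 ± 0.20 and Klf10 at -0.15 ± 0.16, with adjusted p of 0.822 to 0.981 (limma). Zbtb11 was at -0.14, Orai1 at -0.05 and Ankfy1 at -0.52. Of the up-regulated genes, Tbx2 was at 0.24, Egf at 0.25, 8430432A02Rik at 0.24 and Cyp26b1 at 0.32, none of them called. Deficient-diet minus normal-diet wild-type cortex, which shares the wild-type arrays of the first comparison and spans slides 1 and 2, gave -0.65 for Bdnf, -0.60 for Pcsk1, -0.55 for Sik2, -0.86 for Inhba, -0.74 for Klf10 and 0.79 for Tbx2. It gave -0.10 for Tle1 and -0.01 for NAP095541-001. Diet and slide cannot be told apart there.

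**Figure D3:**
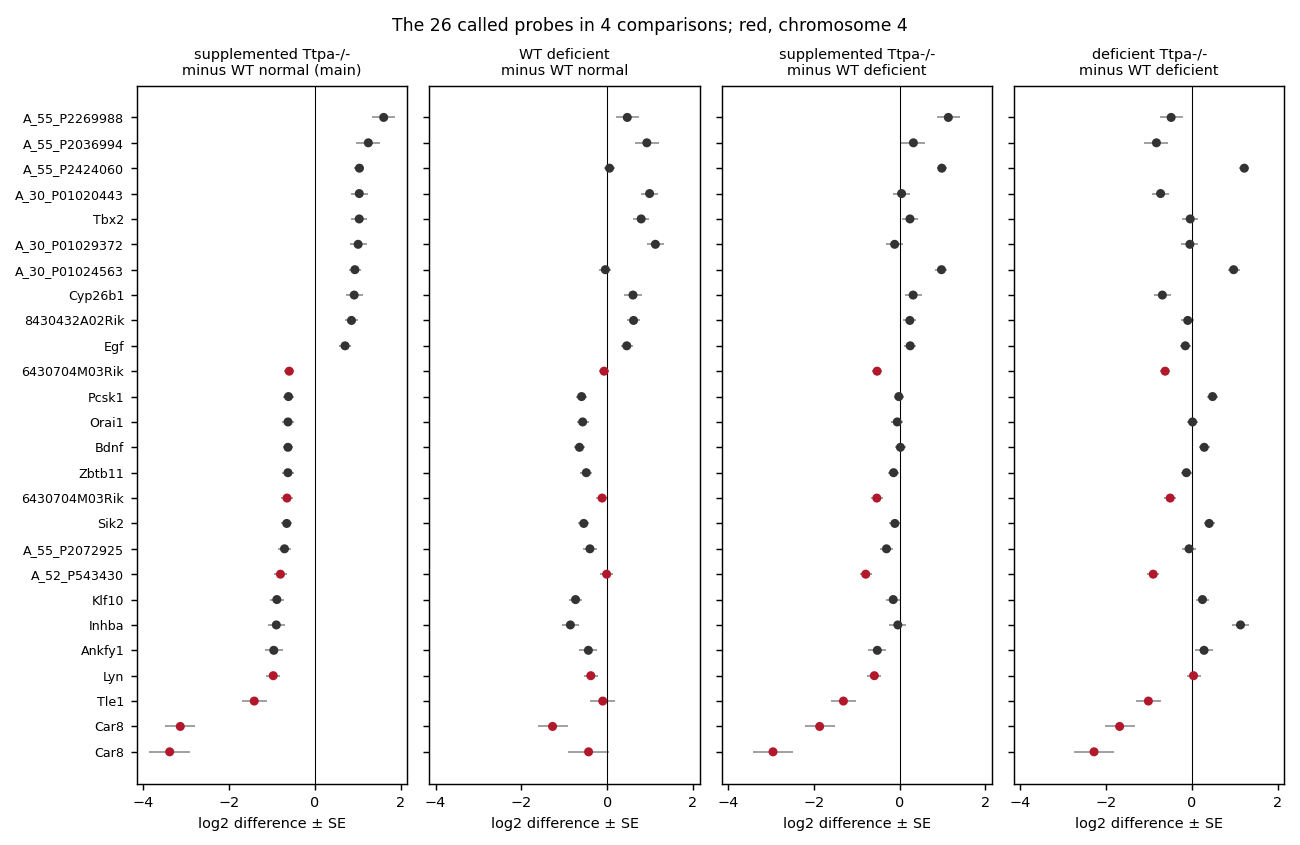
Log2 difference ± SE (horizontal axes) of the 26 called probes in 4 comparisons, some of which share arrays, with chromosome 4 probes marked by colour. Against deficient-diet wild-type cortex, Bdnf lies at 0.02 and Pcsk1 at -0.02. The measured values of Car8 and Lyn against it rest on supplemented arrays not above background. Between the deficient-diet genotypes, the dimmer probe of Car8 was well above background on 0 of 4 Ttpa-/- and 1 of 4 wild-type arrays.

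In the deficient-diet comparison of genotypes, 6 of the 26 probes were called in the same direction. Beside the 4 of chromosome 4 they were A_55_P2424060 at 1.22 and the RNA of chromosome 16 at 0.97. Inhba rose there by 1.13 and Cyp26b1 fell by 0.69, as did A_55_P2036994 by 0.83 and a long intergenic RNA of chromosome 18 by 0.73, all called in the direction opposite to that in the supplemented mice. Bdnf was at 0.29, Pcsk1 at 0.48 and Klf10 at 0.25.

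Supplemented and deficient Ttpa-/- cortex were compared for the effect of diet in the null mice, across slides 2 and 3. Of the 26 probes, 7 were called, against 3.31% of 29077 tested. The 26 were chosen with the same 4 supplemented arrays, so nothing is read from this share. Inhba was lower on the supplemented diet, at -1.17 on the log2 scale, as was Ankfy1 at -0.80, and Lyn was at least 1.29-fold lower. Cyp26b1 was higher, at 1.004, as were A_55_P2036994 at 1.15 and a long intergenic RNA of chromosome 18 at 0.78. A_55_P2269988, not above background on the deficient-diet Ttpa-/- arrays, was at least 2.84-fold higher. The number of probes called in both comparisons was 24, 3, 2 and 19 without supplemented replicates 1, 2, 3 and 4, and 3, 2, 3 and 9 without wild-type replicates 1, 2, 3 and 4.

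Of 31265 probes tested in the cerebellum for the same pair of groups, also on different slides, 4.91% were called in either direction. Of the 26 probes, 9 were called there in the same direction. They were both probes of Car8 at -2.89 and -2.87, Tle1 at -1.41, Bdnf at -0.68, Sik2 at -0.59, Tbx2 at 0.67, 8430432A02Rik at 0.62, A_55_P2424060 at 1.97 and an RNA of chromosome 18 at 0.77. The labels do not say whether cortex and cerebellum came from the same mice, and the arrays were treated as separate samples. The difference between the regions was tested itself, and 2 of the 26 passed, against 0.923% of all probes. A_55_P2269988 rose by 1.60 in the cortex and was at 0.07 in the cerebellum, and A_55_P2424060 rose by 1.04 and 1.97.

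Immediate early genes, which neurons switch on soon after synaptic activity, were mostly lower in supplemented Ttpa-/- cortex. Of 21 tested, 17 were lower, or 81.0%, against 51.8% of all 14980 genes, and the median difference was -0.36 against -0.01. Bdnf was the called member. With an unadjusted p under 0.05 and a fold over 1.5, 5 were lower and 0 higher, where all genes gave 0.447% lower and 0.587% higher. The groups did not overlap in 8 of them, or 38.1%, against 8.04% of all genes, and 7 of the 8 were lower. Some other lists were more one-sided, with 95.2% of heat shock and endoplasmic reticulum chaperones and 92.9% of astrocytic markers lower. Others were not, as with 42.2% of respiratory chain subunits lower.

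Beside Bdnf, the 5 lower genes were the zinc finger factors Egr2 and Egr1, the AP-1 factor Fosl2 and the orphan nuclear receptor Nr4a2. Egr2 read -0.08, -0.13, 0.54 and 0.73 in supplemented Ttpa-/- cortex and 1.48, 1.75, 1.35 and 1.12 in wild-type cortex, without overlap, with a difference of -1.16 ± 0.48 (SE, adjusted p = 0.444, limma). Egr1 differed by -0.72 ± 0.20 (SE, adjusted p = 0.147, limma), Fosl2 by -0.71 ± 0.22 (SE, adjusted p = 0.226, limma) and Nr4a2 by -0.61 ± 0.30 (SE, adjusted p = 0.583, limma). Btg2, an antiproliferative factor, was the highest member at 0.52. The median of the list was -0.10 against deficient-diet wild-type cortex of the same slide, -0.25 between the wild-type diets, -0.30 in the cerebellum and 0.14 between the deficient-diet genotypes.

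Promoters of the down-regulated genes outside chromosome 4 were searched for the cyclic AMP response element, the site of CREB, which acts on many activity-regulated genes. RefSeq promoters (GRCm38.p6, 250 bases before to 50 after the start) were matched for 7 of the 8 genes. The letters TGACGTCA, which read the same on both strands, were in a promoter of 2 of the 7 genes, Pcsk1 and Zbtb11, against 2.03% of 27025 genes. The shorter TGACG, searched on both strands and contained in the full element, was in 6 of 7 against 23.0%, and TATAAA in 1 of 7 against 15.7%. Some of these genes have several promoters in the table, and counted by promoter TGACG was in 6 of 13 (46.2%) against 20.8%. It was also in the promoters of both matched down-regulated genes of chromosome 4, so it does not set the others apart. Of 16 matched immediate early genes, Bdnf among them, 12 had TGACG and 2 the full element (12.5%). Of 3 matched up-regulated genes, 0 had either. The promoters of Pcsk1 and Zbtb11 are shown 5′ to 3′, with the full element in capitals. It began 78 bases before the start in Pcsk1 and 94 in Zbtb11.
Pcsk1 (chr13:75089607-75089906, + strand): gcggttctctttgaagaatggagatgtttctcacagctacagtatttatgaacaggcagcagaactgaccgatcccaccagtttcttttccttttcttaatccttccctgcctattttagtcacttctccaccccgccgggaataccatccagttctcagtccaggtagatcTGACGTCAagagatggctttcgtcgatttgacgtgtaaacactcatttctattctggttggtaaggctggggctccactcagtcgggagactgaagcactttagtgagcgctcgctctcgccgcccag
Zbtb11 (chr16:55973554-55973853, + strand): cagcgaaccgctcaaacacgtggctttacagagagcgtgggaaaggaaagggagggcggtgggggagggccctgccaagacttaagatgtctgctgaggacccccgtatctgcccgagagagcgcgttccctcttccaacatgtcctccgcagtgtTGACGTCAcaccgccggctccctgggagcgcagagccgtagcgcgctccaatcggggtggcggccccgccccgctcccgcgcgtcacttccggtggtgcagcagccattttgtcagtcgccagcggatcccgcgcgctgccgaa
A match is a description of the letters, and binding was not measured.

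Haemoglobin and haem genes had the largest rises among the genes that were not called but had an unadjusted p under 0.05 and groups that did not overlap. Hba-a1, an α-globin gene, read 3.73, 6.83, 5.76 and 4.23 in supplemented Ttpa-/- cortex and 2.42, 1.55, 2.79 and 2.24 in wild-type cortex. All Ttpa-/- arrays lay above all wild-type arrays, but they spread widely, and the difference was 2.89 ± 0.85 (SE, adjusted p = 0.184, limma). Alas2, the erythroid enzyme that starts haem synthesis, differed by 3.37, Beta-s by 3.14, Hbb-b2 by 3.06, Hbb-b1 by 2.97 and Hba-a2 by 2.66, and the adjusted p of the 6 genes was 0.0998 to 0.184 (limma). The globin genes are near-identical copies within the α family and within the β family, so probes of the same family may share transcripts.

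The 4 blood markers had a mean level of 0.18, 3.21, 2.01 and 0.64 on the supplemented Ttpa-/- arrays and of -0.84, -1.78, -0.49 and -1.03 on the wild-type arrays. Replicates 2 and 3 of the Ttpa-/- arrays were highest, and the groups did not overlap. The median difference of the markers was 2.93, against 1.83 relative to deficient-diet wild-type cortex of the same slide and 0.46 in the cerebellum. The part of blood in the other differences was not tested.

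**Figure D4:**
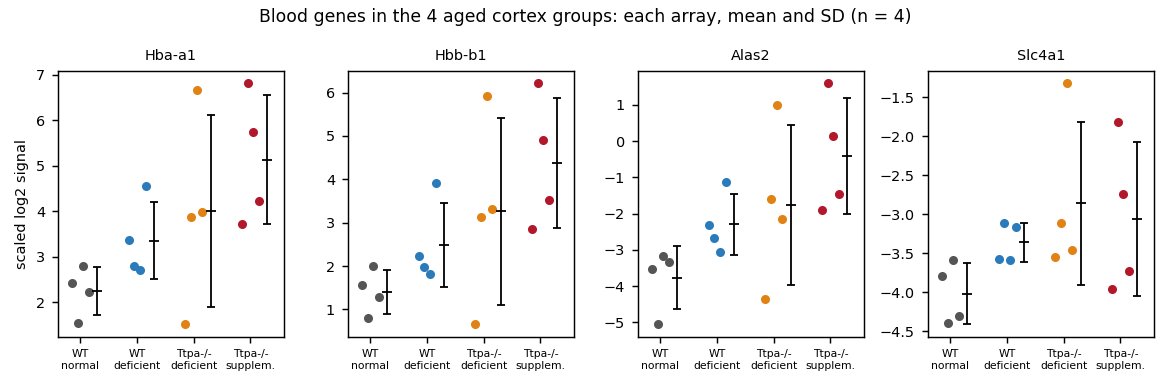
Log2 signal relative to the 75th percentile (vertical axes) of 4 blood genes on each array of the 4 aged cortex groups, with the mean and SD (n = 4). For Hba-a1 the supplemented Ttpa-/- arrays lie at 3.73 to 6.83, the normal-diet wild-type arrays at 1.55 to 2.79, and the deficient-diet arrays of both genotypes at 1.51 to 6.66.

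Markers of tissue beside the cortex also varied between arrays. All 12 choroid plexus markers were higher in supplemented Ttpa-/- cortex, with a median of 1.11, and 0 were called by limma, nor did any have an unadjusted p under 0.05 with a fold over 1.5. Their mean level was 0.94, 1.11, -0.22 and 0.00 on the Ttpa-/- arrays and 0.36, -0.44, 0.97 and -3.24 on the wild-type arrays, of which replicate 4 was far below the rest. Ttr, transthyretin, differed by 1.58 ± 1.27 (SE, adjusted p = 0.876, limma). All 10 striatal markers were higher, with a median of 0.37. Adora2a, an adenosine receptor, was at 1.02, Rgs9, a regulator of G protein signalling, at 0.72 and Drd2, the D2 dopamine receptor, at 0.62, none of them called. Relative to deficient-diet wild-type cortex all 10 were lower, with a median of -0.34. The part of dissection in the other differences was not tested.

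Glial and vascular markers had no called member. Of 13 microglial markers 11 were lower, with a median of -0.21, from -0.48 (Cst7) to 0.11 (Cd68). Of 14 astrocytic markers 13 were lower, with a median of -0.12, from -0.32 (Lcn2) to 0.04 (Gja1). Myelin genes ran from -0.32 (Ermn) to 0.34 (Olig2). Among the precursor markers, Gpr17, a receptor of maturing oligodendrocyte precursors, differed by -0.61 ± 0.23 (SE, adjusted p = 0.369, limma) without overlap of the groups. Endothelial markers ran from -0.19 (Ly6c1) to 0.17 (Tek) and meningeal ones from -0.45 (Dcn) to 0.32 (Igf2).

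Markers of other neurons and regions were likewise not called, apart from Car8, which is also a marker of the cerebellum. Inhibitory neuron markers ran from 0.05 (Sst) to 0.19 (Gad1), hippocampal ones from -0.32 (Fibcd1) to 0.38 (Dsp), those of immature neurons from -0.42 (Sox11) to 0.14 (Dlx2) and those of thalamus and hypothalamus from -0.26 (Lef1) to 0.87 (Avp).

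Genes that handle vitamin E lay close to the rest. Of 21 listed, 15 were tested and 0 were called, with a median of -0.03. The highest was Sec14l4, of the tocopherol-associated protein family, at 0.23. Of 43 antioxidant and glutathione enzymes 22 were higher and 21 lower, between Hmox1, haem oxygenase 1, at -0.28 and Gpx3, the plasma glutathione peroxidase, at 0.41. The 21 genes of lipid peroxidation and iron ran from Ptgs2, cyclooxygenase 2, at -0.46 to Alox5, 5-lipoxygenase, at 0.57. None of these 3 lists had a member with an unadjusted p under 0.05 and a fold over 1.5 (limma).

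Phospholipases A2 were tested for 17 genes, of which 12 were higher and 0 were called. Pla2g3, the secreted group III enzyme, read -0.78, -0.28, -0.61 and -1.08 in supplemented Ttpa-/- cortex and -1.57, -1.61, -1.59 and -0.80 in wild-type cortex. Wild-type replicate 4 lay among the Ttpa-/- arrays, and the difference was 0.70 ± 0.40 (SE, adjusted p = 0.699, limma). Deficient-diet wild-type cortex, on the slide of the supplemented Ttpa-/- arrays, read 0.47, 0.08, -0.07 and -1.86 for Pla2g3. These values lay both above and below all the supplemented Ttpa-/- arrays. The lowest member was Pla2g2c at -0.40. Of 21 genes of amyloid precursor processing and clearance, 0 were called. Ide, the insulin-degrading enzyme, read 0.66, 0.39, 0.72 and 0.67 against 1.63, 1.58, 0.91 and 0.60, with overlap, and the difference was -0.57 ± 0.21 (SE, adjusted p = 0.358, limma). Wild-type replicates 1 and 2 were far above the other arrays, and deficient-diet wild-type cortex read 0.62, 0.54, 0.76 and 0.49. Replicates 1 to 4 of normal-diet wild-type cerebellum at 29 months read 1.88, 1.97, 0.97 and 0.96 for Ide. The highest member was Ncstn, a subunit of γ-secretase, at 0.32.

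Of the genes that the study named, Car8 was called. Gm3448 differed by 1.001 ± 0.29 (SE, adjusted p = 0.180, limma), without overlap of the groups, and by -0.08 from deficient-diet wild-type cortex. Tsga10 was at -0.60 ± 0.22 (SE, adjusted p = 0.333, limma), Fcgbp at 0.68 ± 0.42 (SE, adjusted p = 0.749, limma) and Tcp10c, of a family of near-identical copies, at 0.06 ± 0.36 (SE, adjusted p = 0.991, limma). Dimmer probes of Tsga10 and Tcp10c, not called, read otherwise. That of Tsga10 read -4.22, -4.62, -4.07 and -3.95 against -4.46, -4.37, -4.185 and -4.06 in wild-type cortex, with overlap. That of Tcp10c read -5.08, -4.96, -4.52 and -4.45 against -5.91, -5.60, -5.61 and -5.50, without overlap. Mybpc2 was well above background on too few arrays to be tested, and Gm2252 was not matched to a probe. The study chose these genes on arrays of this series, so the list is no independent evidence.

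Lists of metabolism and proteostasis had small median differences. Of 24 genes of cholesterol synthesis and uptake 21 were lower, with a median of -0.16, and the lowest was Mvd, mevalonate diphosphate decarboxylase, at -0.35. Of 21 heat shock and endoplasmic reticulum chaperones 20 were lower, with a median of -0.16, from -0.34 (Hsph1) to 0.03 (Hspa1a). Relative to deficient-diet wild-type cortex the medians of both lists were 0.03 and 0.00. In the cerebellum, supplemented Ttpa-/- against normal-diet wild-type, they were -0.17 and -0.30. The 64 respiratory chain subunits ran from -0.13 (Atp5h) to 0.08 (Ndufv1). The cortex groups did not overlap in 16.7% of the cholesterol genes, 23.8% of the chaperones and 1.56% of these subunits, against 8.04% of all genes. None of these lists had a called member.

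Immune, clock and transmission lists had no called member either. Of 25 complement, MHC and interferon-stimulated genes 22 were lower, with a median of -0.12, from -0.47 (H2-Aa) to 0.69 (Rsad2). Circadian clock genes ran from -0.48 (Nfil3) to 0.18 (Arntl) and neuropeptide precursors from -0.27 (Trh) to 0.87 (Avp). Subunits of glutamate and GABA receptors ran from -0.39 (Gabra2) to 0.49 (Gria2), where a second probe of Gria2, the brighter one in these cortex arrays, gave -0.32.

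**Figure D5:**
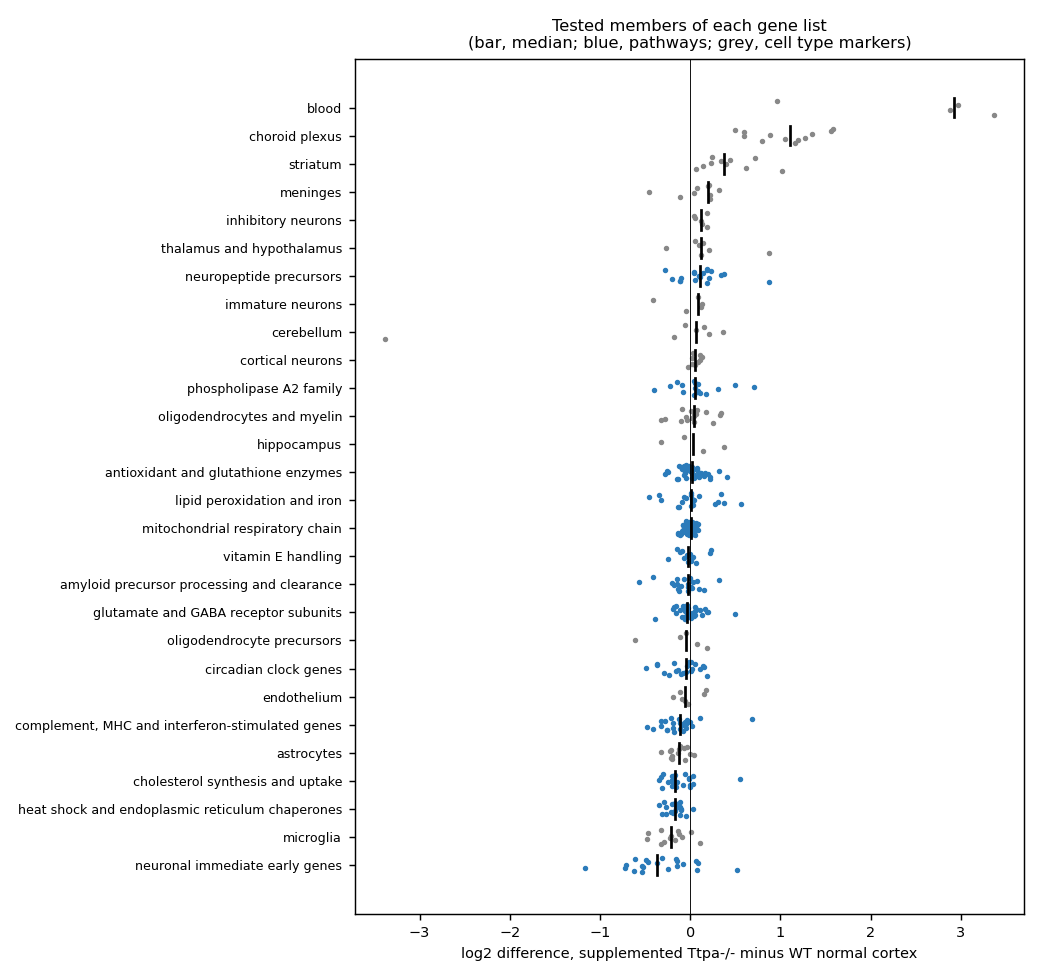
Log2 difference (horizontal axis) of the tested members of each gene list, with the median of each list. Blood, choroid plexus and striatum markers lie highest, with medians of 2.93, 1.11 and 0.37, and neuronal immediate early genes lowest, with -0.36.

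By the same rule, the largest falls that were not called, beside Egr2, were those of Tnfrsf25, Mup9, Zfp449, Baz1a and Eps8. Tnfrsf25, a death receptor of T cells, read -1.79, -1.60, -0.63 and -0.46 in supplemented Ttpa-/- cortex and 0.39, 0.19, 0.28 and -0.30 in wild-type cortex, without overlap, and differed by -1.26 ± 0.38 (SE, adjusted p = 0.207, limma). Relative to deficient-diet wild-type cortex it was at 0.39. Mup9, of the major urinary protein family of near-identical copies, lies on chromosome 4 at 40.5 Mb from Ttpa and differed by -1.19 ± 0.46 (SE, adjusted p = 0.389, limma). Zfp449, at -0.97, and the probe of Eps8 at -0.95 each had 1 wild-type array far above the rest, and the brighter probe of Eps8 gave -0.08. Baz1a gave -0.95 and, in its brighter probe, -0.77.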

How the data were processed

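The arrays were 1-colour Agilent expression arrays with 1 sample each, on 5 slides of 8 arrays. The deposited scanner tables hold the intensity of each spot, which the authors made with Feature Extraction (10.7.3.1 in the file headers, 10.1.1.1 in the submitters' processing notes), corrected for background and detrended array by array, and flags of 0 or 1. The authors also deposited log2 values after global normalization; these equalled the scaled log2 intensity, centred on each probe's mean, to a median absolute difference of 0.000915, and served as an alternative.

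From the scanner tables, control spots and outlier flags were left out, spots of 1 probe were averaged, and log2 intensity was taken relative to the 75th percentile of the array. Probes are named as on the array, and 20591 of its 21916 RefSeq identifiers matched the RefSeq table. limma 3.58.1 in R 4.3.3 fitted all 10 groups of 40 arrays together, and p-values were Benjamini-Hochberg adjusted over the probes tested in each comparison. The scripts were tested on simulated data, and no pair of arrays held identical values. The study's methods give 4 mice a group, and 4 arrays a group limit the precision.

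Named genes were Ttpa, those the study named, every called gene, the 6 largest rises and 6 largest falls among genes not called with an unadjusted p under 0.05, a fold over 1.5 and no overlap of groups, and from each list the members with such p and fold or else its extremes. In the gene lists the probe brightest over the 40 arrays stands for a gene, while rises and falls were ranked by probe. Members and lists were chosen with earlier results of these data known. Alternatives were other scaling, background correction, filters, arrays, weights, variance models and tests. Promoters were searched with Python 3.11.15. A few named items and 1 sequence are not reported here.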

Additional observations from a re-analysis of the deposited data

Results flagged for a closer look

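Each group of 4 arrays was searched for 1 array far from the others, by the gap to its nearest neighbour as a share of the group's range. Of 198 such groups over 99 probes 15 stood out, or 7.58%, where chance gives about 1 in 20, and 13 of them are given here. Among the called probes, the share was 0.9419 for Tle1 (supplemented Ttpa-/- replicate 1, low), 0.8401 for Car8 (Ttpa-/- replicate 3, high) and 0.9108 for the unnamed A_55_P2269988 (wild-type replicate 2, high). A second, uncalled probe of Orai1 gave 0.8646 (Ttpa-/- replicate 1, high).

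Ttpa-/- replicate 1 was also high for Hmox1 (0.9599) and Ptgs2 (0.8929). Ttpa-/- replicate 3 was low for Gabra2 (0.8773), and Ttpa-/- replicate 4 was low for H2-Aa (0.8501). Wild-type replicate 4 was high for Arntl (0.9541) and Pla2g3 (0.9518) and low for Mybpc2 (0.8777). Wild-type replicate 2 was high for Zfp449 (0.8753), and wild-type replicate 1 was low for Ly6c1 (0.8761).

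The difference between supplemented Ttpa-/- and normal-diet wild-type mice, in which genotype and diet both differ, was not the same in cortex and cerebellum for 2 called probes, by limma on the log2 scale. It was larger in the cortex by 1.53 for A_55_P2269988, and for A_55_P2424060 cortex minus cerebellum was -0.94.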

How the results depend on the processing

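Counts of probes depended on the processing. Given as up, down and down on chromosome 4, they were 10, 16 and 7 as reported. They were 2, 2 and 2 with median scaling, 3, 7 and 3 with normexp background correction, and 94, 77 and 12 with array weights. They were 0, 1 and 1 with the 8 arrays alone, and 3 up and 9 down with the 20 cortex arrays. With probes above background on all 8 arrays, 3 were up and 4 down on chromosome 4. By an unadjusted p they were 221, 130 and 16, by an adjusted p at any fold 22, 38 and 15, and by fold alone 322, 214 and 22. The methods' t-test gave 137, 98 and 15 unadjusted and 0, 1 and 1 after Benjamini-Hochberg adjustment. With genes in place of probes they were 4, 9 and 4. Without single arrays they were 3 to 35, 4 to 42 and 4 to 7.

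Of the called probes, 7 also differed between the diets of Ttpa-/- mice, 4 from deficient-diet wild-type cortex, 2 between the regions and 6 the same way between the deficient-diet genotypes. With median scaling these were 1, 1, 0 and 2, and with array weights 28, 44, 37 and 30. With normexp the counts for diet and region were 3 and 1, and with the 20 cortex arrays that for diet was 1. Without single arrays they were 2 to 24, 3 to 7, 1 to 7 and 4 to 6. Of 21 immediate early genes, 17 were lower as reported and 16 to 18 without single arrays. The counts on chromosome 4, of the deficient-diet genotypes and of immediate early genes were added after seeing the data.

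Replicate numbers did not pair the arrays, since same-numbered arrays had deviations correlated at -0.06, 0.08, 0.34 and -0.33. With the replicate number as a block, 10 probes were down, and 3 of the called probes differed between the diets. The slide as a block could not be fitted, since each group lay on 1 slide. No called value changed sign under any alternative. Genes not well above background in a group have only a bound there.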
